A study of Homo sapiens with 16 samples.

Results

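Introns 19 and 20 of *EIF4G2* are 2 of the 6 introns (15 to 20) carried by the long minigene and 2 of the 21 introns listed for the transcript. *EIF4G2* encodes a translation initiation factor of the eIF4G family. Both introns were chosen by position, and their excision was read from single nanopore reads that covered exactly introns 15 to 20. Of the 16 libraries of the series, 8 could be used, all from HEK293T, a human embryonic kidney cell line that is easily transfected. NT libraries came from cells that received no plasmid, so their reads are endogenous *EIF4G2* RNA. The long minigene is a plasmid with introns 15 to 20 and their exons under the CMV promoter, and long_alt is the same insert with an alternative allele at the 3′ end of intron 17. NT, long and long_alt were each sequenced as RT-PCR amplicons that ended in exon 21, in 2 biological replicates (6 libraries). The forward primer lay in exon 15 for NT and in plasmid-specific sequence for the minigenes, so in every RT-PCR comparison with NT the amplicon and the source of the RNA cannot be told apart. RNA from the long minigene and from mut5SS, a long minigene with a changed 5′ splice site of intron 19, was also sequenced directly, without amplification, in 1 library each. In transfected cells, direct RNA reads over exactly introns 15 to 20 can include endogenous molecules. The RT-PCR libraries held between 23178 and 46089 reads over introns 15 to 20, and the direct RNA libraries 986 (long) and 1546 (mut5SS).

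Before an intron is removed, the U1 snRNP marks its 5′ splice site, and U2AF and the U2 snRNP mark its 3′ end. Further assembly steps follow before excision. The pyrimidine-rich stretch just before the 3′ splice site is the landing place of U2AF. Introns of one transcript are not removed strictly from the first to the last, and in exon definition the splice sites at both ends of an exon are recognised together.

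Both introns are short and lie between coding exons. On GRCh38, minus strand, intron 19 spans chr11:10799425-10799551 (127 nt) and intron 20 spans chr11:10799114-10799212 (99 nt). Intron 18, just upstream, is longer at 333 nt. Exon 19 (205 nt) and exon 20 (212 nt), which flank intron 19, are entirely coding, and neither length is a multiple of 3. The reference sequences of introns 19 and 20 are shown whole because their ends decide every status reported here. Capitals mark the first 6 and the last 3 intron bases, and 10 exon bases are kept on each side.
Intron 19: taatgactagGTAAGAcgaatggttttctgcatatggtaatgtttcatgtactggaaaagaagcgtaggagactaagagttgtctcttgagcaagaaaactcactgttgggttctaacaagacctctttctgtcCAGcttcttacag
Intron 20: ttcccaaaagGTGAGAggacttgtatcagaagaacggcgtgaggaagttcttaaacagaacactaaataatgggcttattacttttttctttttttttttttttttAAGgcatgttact
For comparison with their upstream neighbour, the 3′ ends of the 3 introns are given as the last 23 intron bases.
Intron 18: tgcaggtggctttgtctcttCAG
Intron 19: taacaagacctctttctgtcCAG
Intron 20: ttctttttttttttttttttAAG
In the 20 bases before the last 3, pyrimidines made up 100% in intron 20 against 65% in both intron 19 and intron 18. GC content was 31.3% in intron 20 and 40.9% in intron 19. The 6 first bases of intron 19 are the same as those of intron 18.

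**Figure D1:**
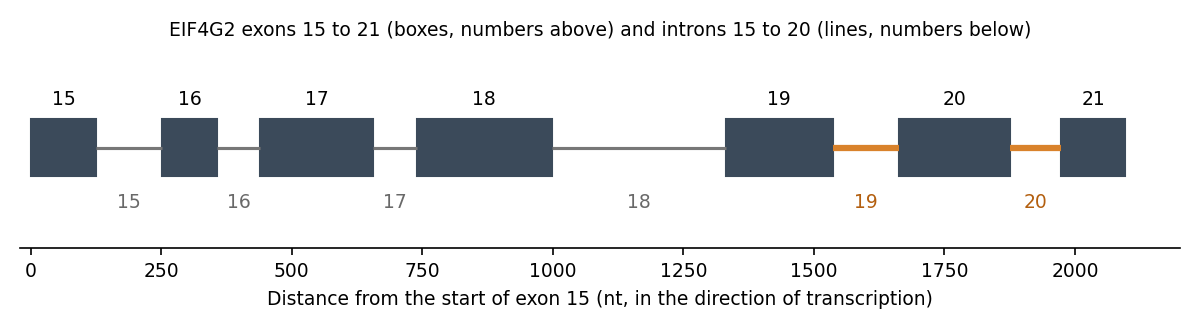
Map of *EIF4G2* exons 15 to 21 (boxes) and introns 15 to 20 (lines), drawn to scale in nt from the start of exon 15. Introns 19 (127 nt) and 20 (99 nt), in orange, follow the 333 nt intron 18.

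Both introns were excised from nearly every endogenous read and from most minigene reads. In each read an intron was excised, retained, skipped (1 or both of its splice sites spliced past or replaced by another site) or undetermined, and shares were taken over reads determined at that intron. Intron 19 was excised in 99.2% and 99.1% of reads of the NT replicates, in 92.7% and 94.9% in long, and in 90.4% and 88.8% in long_alt. Intron 20 was excised in 99.3% and 99.1%, in 94.9% and 96.7%, and in 93.6% and 92.3% of reads of the same libraries. Every minigene library lay below both NT libraries at both introns, and intron 20 was excised more often than intron 19 in all 6 libraries. The mean difference, intron 19 minus intron 20, was -1.82 ± 1.49 percentage points (SD, n = 6, adjusted p = 0.0469, exact sign-flip permutation test, two-sided, 3 tests). It ranged from -0.0215 points in NT replicate 2 to -3.51 points in long_alt replicate 2. With 6 libraries the smallest p such a test can give is 0.0312. The call was lost (adjusted p = 0.0938, exact sign-flip permutation test) when undetermined reads were treated otherwise or rare combinations were left out. The reads carry no molecular identifiers, so all intervals below cover counting error only.

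Retention of either intron was rare. Intron 19 was retained in 0.412% and 0.631% of NT reads, 0.104% and 0.838% of long reads and 0.341% and 1.49% of long_alt reads. Intron 20 was retained in 0.161% and 0.317% of NT reads, 0.104% and 0.639% of long reads and 0.0999% and 0.782% of long_alt reads. Replicate 2 was the higher one in every condition at both introns. Retention was higher at intron 19 than at intron 20 by 0.286 ± 0.233 points (SD, n = 6, adjusted p = 0.0469, exact sign-flip permutation test). In long replicate 1 the order rests on the denominators alone, since 24 reads retained intron 19 and 24 retained intron 20, and this call too was lost with the same alternatives (adjusted p = 0.0938, exact sign-flip permutation test). Among introns 15 to 20, intron 20 was the least retained in 4 of 6 RT-PCR libraries, all minigene libraries, and second to intron 15 in both NT libraries. Intron 18 was the most retained in the NT and long libraries, at 0.740% to 2.83%, and intron 17 in the long_alt libraries, at 2.70% and 6.0%.

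By RT-PCR, skipping was higher in the minigenes than in NT. Intron 19 was skipped in 0.391% and 0.256% of NT reads, in 7.21% and 4.26% of long reads and in 9.23% and 9.73% of long_alt reads. For intron 20 the shares were 0.519% and 0.548%, 4.95% and 2.66%, and 6.28% and 6.93%. The 4 minigene libraries did not overlap the NT libraries at either intron. In direct RNA, intron 19 was skipped in 1.52% of long minigene reads (95% Wilson interval 0.924% to 2.49%). Reads that listed an intron before intron 15 were endogenous. Pooled over the 6 direct RNA libraries, they skipped intron 19 in 1.10% (5 of 456, interval 0.469% to 2.54%). Of these 5 reads, 3 came from mut5SS (of 127) and 1 from the library of a minigene without introns 19 and 20 (of 13). In the long library 0 of 26 such reads skipped intron 19. At intron 20 the shares were 0.913% (interval 0.481% to 1.73%) in long minigene reads and 0.219% (interval 0.0387% to 1.23%) in the pooled endogenous reads. Long and long_alt together exceeded NT by 7.28 points at intron 19 and 4.67 points at intron 20 (adjusted p = 0.2 for both, exact permutation test, two-sided, 6 tests). No such comparison of 4 against 2 libraries can give a p under 0.133. For excision the difference from NT was -7.46 points at intron 19 and -4.84 points at intron 20 (adjusted p = 0.2 for both, exact permutation test). Retention differed from NT by 0.172 points at intron 19 and 0.167 points at intron 20, within the spread of the replicates (adjusted p = 0.933 for both, exact permutation test).

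**Figure D2:**
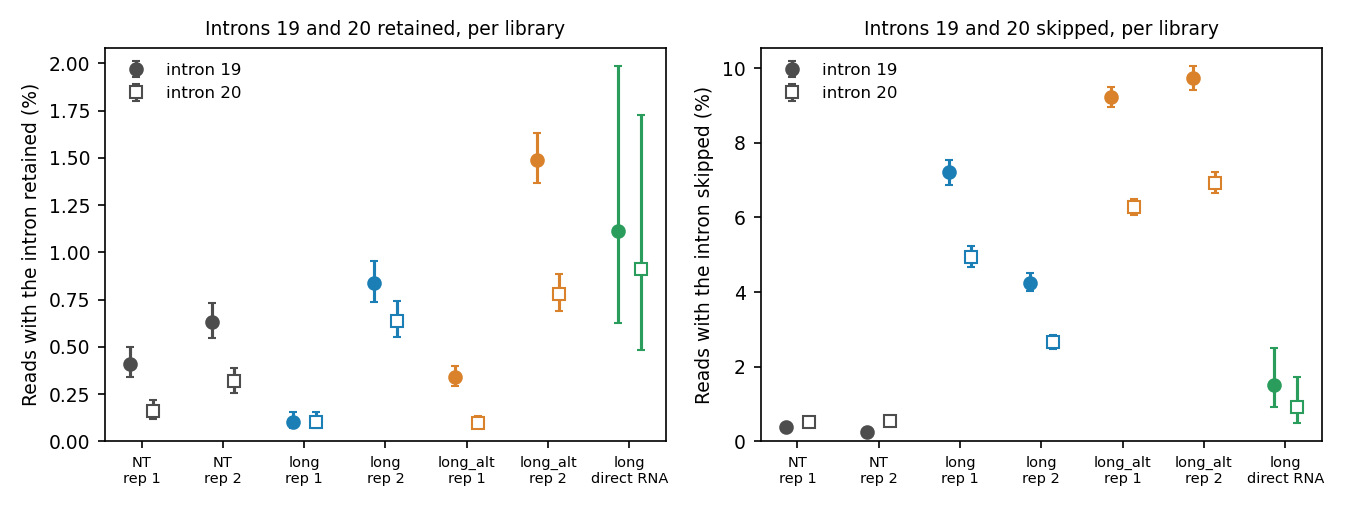
Percent of reads with intron 19 (filled circles) or intron 20 (open squares) retained (left) or skipped (right), per library, with 95% Wilson intervals. Skipping lies between 0.256% and 0.548% in NT and between 2.66% and 9.73% in the minigene RT-PCR libraries, and retention is higher in replicate 2 of each RT-PCR condition.

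The long minigene alone showed the same differences over NT, and long_alt lay beyond long. Intron 19 skipping was 5.73% ± 2.09 in long (SD, n = 2), 9.48% ± 0.351 in long_alt (SD, n = 2) and 0.324% ± 0.0955 in NT (SD, n = 2). The step from long to long_alt was 3.75 points at intron 19 and 2.80 points at intron 20 (adjusted p = 0.5 for both, exact permutation test). Long minus NT was 5.41 points at intron 19 and 3.27 points at intron 20 (adjusted p = 0.5 for both, exact permutation test). In these comparisons of 2 against 2 libraries the 2 groups did not overlap, but 0.333 is the smallest p that 2 against 2 can give. Retention in long differed from NT by -0.0504 points at intron 19 and 0.132 points at intron 20, with overlapping libraries (adjusted p = 1 for both, exact permutation test). Between long and long_alt, retention differed by 0.445 points at intron 19 (adjusted p = 0.8) and 0.0699 points at intron 20 (adjusted p = 1), also with overlapping libraries (exact permutation test).

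Among junctions that skip intron 19 or 20, the most frequent in the 4 minigene RT-PCR libraries joined exon 16 to exon 21, so that exons 17 to 20, 892 nt in all, were lost. This junction uses neither splice site of intron 19 and only the 3′ splice site of intron 20. It made up 3.85% and 1.65% of long reads and 5.37% and 5.81% of long_alt reads, against 0.189% and 0.0541% of NT reads. The long_alt libraries were the highest and the NT libraries the lowest, with no overlap. It accounted for 38.7% to 59.8% of the reads with intron 19 skipped in the 4 minigene libraries and for 61.9% to 85.7% of those with intron 20 skipped. A related junction from exon 16 to exon 20, which leaves intron 20 to be excised normally, was found in 0.738% and 0.468% of long reads and 1.75% and 1.54% of long_alt reads, but in 4 and 0 reads of the NT replicates. Skipping of exon 19 alone, from exon 18 to exon 20, took 0.721% and 0.620% of long reads, 0.601% and 0.578% of long_alt reads and 0.0411% and 0.0396% of NT reads. Skipping of exon 20 alone was nearly absent, with 0 to 7 reads per RT-PCR library. In unamplified RNA of the long minigene the junction from exon 16 to 21 was seen in 2 of 986 reads, or 0.203% (95% Wilson interval 0.0556% to 0.737%), an interval below that of each minigene RT-PCR library. The share in direct RNA and by RT-PCR was not tested between replicates, since direct RNA of long was sequenced once.

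The other form of intron 20 skipping kept its 5′ splice site and joined it to another 3′ splice site, with all the other introns excised. It was the most frequent combination with intron 19 or 20 not excised in both NT libraries, at 0.222% (54 reads) and 0.371% (103 reads). In long it took 0.0992% and 0.203%, and in long_alt 0.135% and 0.185%, so every minigene library lay below both NT libraries. The long direct RNA library held 4 such reads, 0.406%. It made up 42.9% and 67.8% of all intron 20 skipping in NT but 2.01% to 7.64% in the minigene RT-PCR libraries, where the junction from exon 16 to 21 made up most of the skipping. In long direct RNA it made up 44.4% (4 of 9 reads). The position of the other 3′ splice site is not recorded in the counts.

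Of the 4 splice sites of introns 19 and 20, the one at the 3′ end of intron 20 was the least often passed over in the minigene RT-PCR libraries. It was skipped in 0.669% and 0.750% of long reads and 0.593% and 0.770% of long_alt reads, while the 5′ splice site of intron 20 was skipped in 4.83% and 2.43% and in 6.11% and 6.69%. The 5′ splice site of intron 19 was skipped in 7.13% and 4.19% of long reads and in 9.17% and 9.65% of long_alt reads, the highest of the 4 sites in each library. Its 3′ splice site was skipped in 5.09% and 2.65% and in 6.36% and 7.04% of the same reads. In NT all 4 sites were skipped in 0.162% to 0.411% of reads.

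Retention of intron 19 was more frequent in reads that retained intron 18. In reads with intron 18 retained, intron 19 was also retained in 15.9% (99 of 622) and 32.7% (171 of 523) of NT reads, 9.41% (16 of 170) and 26.7% (204 of 763) of long reads, and 15.0% (135 of 899) and 31.4% (443 of 1413) of long_alt reads. In reads with intron 18 excised, intron 19 was retained in 0 of 23380 NT reads of replicate 1, which allows up to 0.0128%, and in at most 0.127% of reads (33 of 25893, long_alt replicate 2) elsewhere. The groups of reads did not overlap in any library. The difference was 21.8 ± 9.66 points (SD, n = 6, adjusted p = 0.0375, exact sign-flip permutation test, 6 tests, higher in 6 of 6 libraries). Even so, intron 19 was already excised in 67.1% to 90.6% of the reads that still held intron 18.

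Intron 20 showed the same pattern with lower shares. With intron 18 retained, intron 20 was retained in 5.14% (32 of 623) and 15.5% (81 of 524) of NT reads, 0.588% (1 of 170) and 14.8% (113 of 764) of long reads, and 2.0% (18 of 899) and 13.5% (192 of 1418) of long_alt reads. With intron 18 excised the shares lay between 0.0214% and 0.214%. The difference was 8.49 ± 6.74 points (SD, n = 6, adjusted p = 0.0375, exact sign-flip permutation test, higher in 6 of 6 libraries). It was smallest in long replicate 1, at 0.492 points, where it rests on 1 read. For excision the difference was -21.9 points at intron 19 and -8.87 points at intron 20 (adjusted p = 0.0375 for both, exact sign-flip permutation test). Leaving out combinations seen in 1 read ended the calls on excision and retention at both introns (adjusted p = 0.0938 for each, exact sign-flip permutation test), with differences of 21.4 points in retention at intron 19 and 8.18 points at intron 20. Skipping of intron 19 differed by 0.117 points (adjusted p = 0.219, exact sign-flip permutation test). Most reads that skip intron 19 skip intron 18 too, 1643 of 1669 in long replicate 1, and so lie outside this comparison. It therefore cannot tell how skipping goes with intron 18. Skipping of intron 20 was 0.377 points higher in reads with intron 18 retained (adjusted p = 0.0375, exact sign-flip permutation test), a value that rests on 2 to 8 reads per library and turned negative, -0.107 points, once combinations seen in 1 read were left out.

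**Figure D3:**
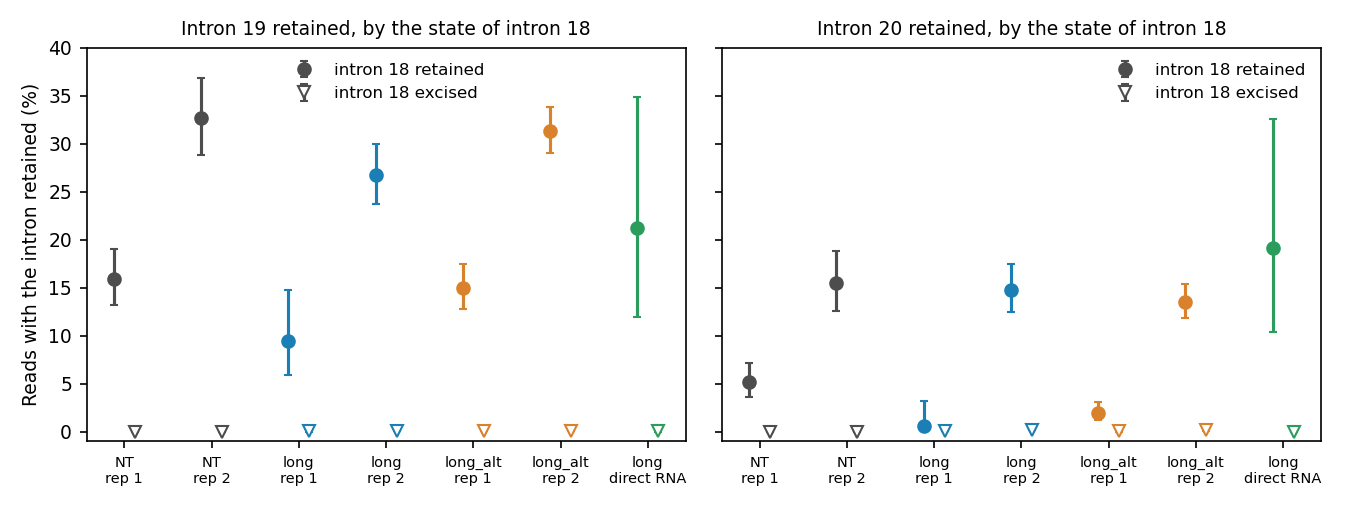
Percent of reads with intron 19 (left) or intron 20 (right) retained, among reads with intron 18 retained (filled circles) or excised (open triangles), per library, with 95% Wilson intervals. Intron 19 retention lies between 9.41% and 32.7% beside a retained intron 18 and at or under 0.127% beside an excised one in the RT-PCR libraries.

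Conversely, reads that retained intron 19 nearly always retained intron 18 too in NT, 99 of 100 and 171 of 174 reads. In the minigenes this held for 16 of 24 and 204 of 222 long reads and 135 of 155 and 443 of 480 long_alt reads. Reads that retained intron 20 were more mixed: intron 18 was retained in 32 of 38 and 81 of 88 NT reads, but in 1 of 24 and 113 of 170 long reads and in 18 of 46 and 192 of 250 long_alt reads. Many of these molecules also held upstream introns. Intron 17 was retained in 76.0% and 87.4% of the NT reads with intron 19 retained, in 29.2% and 65.6% of those in long and in 49.7% and 75.7% of those in long_alt. Reads with all of introns 15 to 20 retained numbered 27, 36 and 48 in replicate 2 of NT, long and long_alt and 0 in each replicate 1, and this moved with the higher retention of replicate 2. Leaving them out, an alternative chosen after seeing the data, changed no call.

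Restricting the reads to those with introns 15 to 17 all excised left the difference in place in the RT-PCR libraries. Beside a retained intron 18, intron 19 was then retained in 6.83% and 9.76% of NT reads, 6.57% and 11.9% of long reads and 12.2% and 18.3% of long_alt reads. The difference from reads with intron 18 excised was 10.9 points at intron 19 and 2.80 points at intron 20 (adjusted p = 0.0375 for both, exact sign-flip permutation test). All 6 libraries were higher beside a retained intron 18. The intron 19 shares were lower than without the restriction in all 6 libraries, and those of intron 20 in all but long replicate 1, where 1 read of 136 retained it.

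Reads with exactly 1 intron of a pair retained show which of the pair was excised while the other was still present. They come from total RNA, and molecules on the way to full excision cannot be told apart from those that keep the intron. Of the reads that retained 1 of introns 18 and 19 and had excised the other, 100% (522 of 522) and 99.4% (351 of 353) retained intron 18 in NT, 95.1% (154 of 162) and 97.2% (555 of 571) in long, and 97.6% (761 of 780) and 96.7% (968 of 1001) in long_alt. Intron 19 was thus the excised intron of the pair in at least 95.1% of these reads in each RT-PCR library. For introns 18 and 20 the share retaining intron 18 was 99.2% and 98.4% in NT, 90.3% and 92.8% in long and 98.0% and 96.7% in long_alt. The means, 97.7% ± 1.82 and 95.9% ± 3.56 (SD, n = 6), differed from 50% (adjusted p = 0.0312 for both, exact sign-flip permutation test, 3 tests, above 50% in 6 of 6 libraries).

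Between introns 19 and 20 the shares were less one-sided. Intron 19 was the one still retained in 84.4% (76 of 90) and 83.6% (107 of 128) of such NT reads, 51.2% (22 of 43) and 66.9% (113 of 169) of long reads and 85.0% (142 of 167) and 85.5% (288 of 337) of long_alt reads. The mean was 76.1% ± 14.1 (SD, n = 6, adjusted p = 0.0312, exact sign-flip permutation test, above 50% in 6 of 6 libraries). In long replicate 1 the 95% Wilson interval, 36.8% to 65.4%, includes 50%. Among reads with introns 15 to 17 excised the mean was 60.1%, and the call was lost (adjusted p = 0.188, exact sign-flip permutation test).

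**Figure D4:**
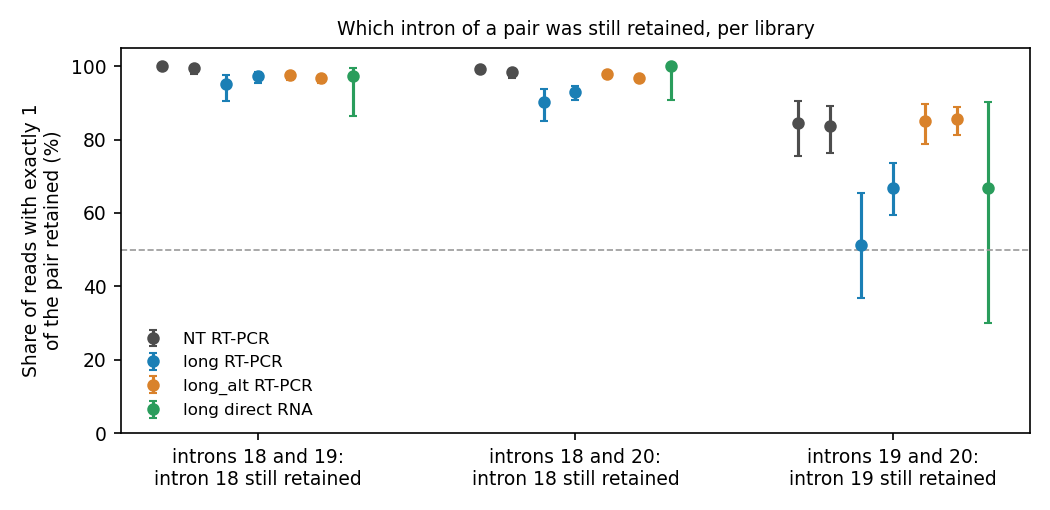
Share of reads that still retained the named intron, among reads with exactly 1 intron of the pair retained and the other excised, per library with 95% Wilson intervals. The dashed line marks 50%, where neither intron is the more often retained. Intron 18 is the one retained in at least 90.3% of reads of each library, and intron 19 is retained with intron 20 excised in 51.2% to 85.5% of the RT-PCR reads.

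The joint states of the 3 introns differed widely in frequency. Among reads with intron 18 retained and introns 19 and 20 each excised or retained, both were excised in 82.8% and 64.5% of NT reads, 91.0% and 72.1% of long reads and 84.4% and 67.7% of long_alt reads. Intron 19 alone was also retained in 8.38% to 19.9% of these reads, and both in 0.599% to 13.8%. Intron 20 alone was also retained in 0% to 2.70%, the rarest state in 6 of 6 libraries. In long replicate 1 it was seen in 0 of 167 reads, which allows a share of up to 1.80%.

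Reads that passed over the 5′ splice site of intron 18 but used its 3′ splice site, and so kept the start of exon 19, nearly always had introns 19 and 20 excised. In reads that used the 3′ splice site of intron 18 with a 5′ splice site other than its own, intron 19 was excised in 2480 of 2491 and 1742 of 1746 long reads and in 3757 of 3763 and 1772 of 1777 long_alt reads. Intron 20 was excised in 98.9% to 99.5% of such reads in these 4 libraries. The 2 NT libraries held only 180 and 97 of these reads, with intron 19 excised in 180 and 95.

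Direct RNA reads gave the statuses without amplification. In the long minigene, intron 19 was excised in 960 of 986 reads (97.4%, 95% Wilson interval 96.2% to 98.2%), retained in 1.12% and skipped in 1.52%. Intron 20 was excised in 968 of 986 reads (98.2%, interval 97.1% to 98.8%), and retained and skipped in 0.913% each. As by RT-PCR, intron 20 had the higher excised share, with counting intervals that overlap. Beside a retained intron 18, intron 19 was excised in 37 of 47 reads against 837 of 838 beside an excised one, a difference of -21.2 points (adjusted p = 2.13e-12, Fisher's exact test). Intron 20 was excised in 38 of 47 against 832 of 838 reads, a difference of -18.4 points (adjusted p = 9.14e-09, Fisher's exact test). These tests count reads, not replicates. Among reads with introns 15 to 17 excised, intron 19 was excised in 22 of 22 reads that retained intron 18, and the difference became 0.122 points (p = 1, Fisher's exact test). The difference for intron 20 became -3.82 points (adjusted p = 0.508, Fisher's exact test). Of the 11 reads with intron 19 retained, 10 also retained intron 17. A retained share of up to 13.6% is still possible with 22 reads.

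With the 5′ splice site of intron 19 changed, no determined read had intron 19 excised and most molecules lacked exon 19. In mut5SS, intron 19 was excised in 0 of 1500 determined reads, which allows up to 0.2%, against 97.4% in the long minigene. Left out were 46 of 1546 reads (2.98%) undetermined at intron 19, against 0 of 986 in long. Of these 46 reads, 40 had intron 18 excised, and what happened to intron 19 in them is not known. Intron 19 was retained in 106 reads (7.07%, 95% Wilson interval 5.88% to 8.48%) and skipped in 1394 reads (92.9%, interval 91.5% to 94.1%). Of the skipped reads, 1386 still used the 3′ splice site of intron 19, and 1273 joined exon 18 to exon 20. Both values at intron 19 differed from the long library, by 5.95 points for retention (adjusted p = 2.05e-13, Fisher's exact test) and by 91.4 points for skipping, where the p was too small to be computed. In reads of the mut5SS library that listed an intron before intron 15, which the plasmid does not hold, intron 19 was excised in 124 of 127. Each minigene was sequenced in 1 library, so these tests compare 2 libraries and not the conditions.

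Intron 20 differed far less between the 2 libraries. It was excised in 1489 of 1541 mut5SS reads (96.6%, 95% Wilson interval 95.6% to 97.4%), a difference of -1.55 points from the long library (adjusted p = 0.0296, Fisher's exact test). Retention was 2.27% against 0.913%, a difference of 1.36 points (adjusted p = 0.0178, Fisher's exact test), and skipping differed by 0.190 points (adjusted p = 0.692, Fisher's exact test). The first of these calls was lost, at -1.19 points (adjusted p = 0.0828, Fisher's exact test), when reads undetermined at any intron were left out, and so was that of retention, at 1.03 points (adjusted p = 0.0677, Fisher's exact test).

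In mut5SS, introns 18 and 19 were retained in the same reads, but no determined read had intron 19 excised. The counts that follow therefore cannot tell whether retention of the introns is linked. All 106 reads with intron 19 retained also retained intron 18, and all 106 reads with intron 18 retained and intron 19 determined retained intron 19. Intron 20 was retained in 35 of 102 reads with intron 18 retained (34.3%) and in 0 of 40 with intron 18 excised, which allows up to 7.50%. Excision of intron 20 was 64.7% against 97.5% in these reads (adjusted p = 1.35e-05, Fisher's exact test). Of the 35 reads that retained intron 20, 34 also retained introns 16 and 17, and among reads with introns 15 to 17 excised the difference in intron 20 excision was -0.0641 points (p = 1, Fisher's exact test). In all 40 reads with intron 18 excised, the status of intron 19 was undetermined, so the comparison for intron 19 could not be made in this library.

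**Figure D5:**
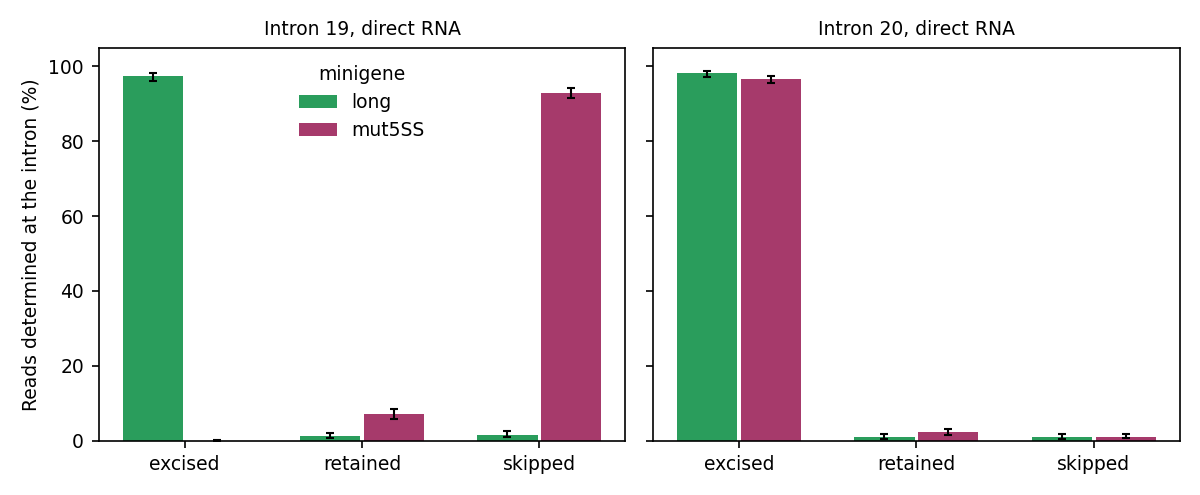
Percent of direct RNA reads with intron 19 (left) or intron 20 (right) excised, retained or skipped, in the long minigene (green) and mut5SS (dark pink), 1 library each. Bars start at 0 and lines are 95% Wilson intervals. Among reads determined at the intron, intron 19 excision goes from 97.4% to 0% and its skipping from 1.52% to 92.9%, while intron 20 is excised in 98.2% and 96.6%.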

How the data were processed

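The authors basecalled the nanopore reads, aligned them to GRCh38 with minimap2, kept uniquely mapped reads and read the status of each *EIF4G2* intron from the alignment. They deposited, per library, whole-number counts of reads for each combination of introns and statuses, with no normalization. Reads over exactly introns 15 to 20 were kept here, and reads undetermined at the intron measured were left out of its share. Combinations seen in a single read were kept. Between 27 and 83 reads of an RT-PCR library, 0 of long direct RNA and 51 of mut5SS direct RNA were undetermined at intron 19 or 20. Whole files held 24951 to 49577 reads (RT-PCR) and 1499 and 3362 reads (direct RNA).

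Library percentages were compared by exact permutation (sign flips within the 6 RT-PCR libraries, or exchange of libraries between conditions) and direct RNA reads by Fisher's exact test, all two-sided, with Benjamini-Hochberg adjustment within each family of tests and a threshold of 0.05. Python 3.11.15, SciPy 1.17.1 and matplotlib 3.10.9 were used. The counting and intervals were tested on simulated reads, where 36 of 36 shares fell inside their 95% Wilson interval. The simulated reads were independent and held no skipped or undetermined introns, so amplification was not covered. A share of 0 is given with the limit that 3 counts allow. Introns 15 to 20 could be named, as could the 3 most frequent combinations of a library, overall and among reads with intron 19 or 20 not excised; the other junctions, and the splice site and joint counts, were chosen after their values were seen. The introns and comparisons were chosen with earlier results of these data known. Alternatives varied the reads and combinations kept, the denominator, the pooling or pairing of replicates and the libraries. Sequences and coordinates come from GRCh38 and GENCODE v44 (ENST00000339995.11). The changed bases of mut5SS and the alternative allele are not reported here.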

Additional observations from a re-analysis of the deposited data

Results flagged for a closer look

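The balance of skipping between introns 19 and 20 ran in opposite directions in the NT and minigene RT-PCR libraries. Skipping at intron 19 minus skipping at intron 20 was -0.128 and -0.292 percentage points in the NT replicates, but 2.26 and 1.60 points in long and 2.96 and 2.80 points in long_alt. The mean was thus 2.14 points higher in long and 3.09 points higher in long_alt than in NT. The 4 minigene libraries exceeded the 2 NT libraries by 2.61 points (p = 0.133, exact permutation test, the smallest p that 4 against 2 can give). The single differences of long and of long_alt from NT were not tested apart.

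Direct RNA reads that also listed an intron before intron 15, which the minigenes do not contain, were not used in any test. Over the 6 direct RNA libraries together they numbered 456 with introns 19 and 20 determined. Intron 19 was excised in 98.2% of them (448 reads, 95% Wilson interval 96.6% to 99.1%) and intron 20 in 99.8% (455 reads, interval 98.8% to 99.96%). Intron 19 was retained in 3 and skipped in 5 (1.10%), and intron 20 was retained in 0 and skipped in 1 (0.219%). The balance of skipping in these endogenous reads had the sign of the minigene RT-PCR libraries, but it rests on 5 reads against 1. The intervals overlap, 0.469% to 2.54% at intron 19 and 0.0387% to 1.23% at intron 20. Of the 5 reads, 3 came from mut5SS and 1 from the library of the minigene without introns 19 and 20. The difference from NT was not tested.

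The short_1 minigenes hold introns 15 to 18 only, yet a few reads of their libraries covered introns 15 to 20. They numbered 24 and 14 in the short_1 RT-PCR replicates, 32 and 16 in short_1_alt and 31 in the short_1 direct RNA library. Intron 19 was excised in 19, 12, 30, 14 and 30 of these reads and intron 20 in 20, 12, 30, 15 and 30.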

How the results depend on the processing

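With 6 libraries the tests had little room, and any left-out library made the threshold unreachable (smallest p = 0.0625, exact permutation test). The difference in excision, intron 19 minus intron 20, was -1.80 points without reads undetermined at any intron, -1.83 with undetermined reads in the denominator, -1.80 with combinations of at least 2 reads and -1.67 with at least 10, none with an adjusted p under the threshold, and -2.18 to -1.48 with 1 library left out. For retention these values were 0.282, 0.285, 0.287 and 0.293, and 0.201 to 0.343. Between reads with intron 18 retained and excised, a minimum of 2 and 10 reads gave -21.4 and -19.4 points for intron 19 excision, 21.4 and 19.4 for its retention, -8.08 and -6.70 for intron 20 excision and 8.18 and 7.03 for its retention, none with an adjusted p under the threshold. Skipping turned negative, to -0.0327 and -0.0325 at intron 19 and -0.107 and -0.324 at intron 20. Against all other reads, in place of those with intron 18 excised, skipping differed by -5.09 and -2.99 points at introns 19 and 20, since those other reads include skipped ones, and intron 20 excision by -5.49 points. With 1 library left out the ranges were -24.5 to -19.8 and 19.6 to 24.3 points for intron 19 excision and retention, and -10.4 to -7.50, 7.10 to 10.1 and 0.285 to 0.434 for intron 20 excision, retention and skipping. With 1 library left out, the shares of reads with 1 intron of a pair retained ranged from 97.2% to 98.2% (introns 18 and 19), 95.2% to 97.0% (18 and 20) and 74.2% to 81.1% (19 and 20), and the last was 75.8% without undetermined reads, 74.9% with at least 10 reads and 60.1% with introns 15 to 17 excised. The cause of these changes was not tested.

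Between conditions, leaving out 1 library turned the sign of retention differences: -0.0937 to 0.369 points at intron 19 for both minigenes against NT, -0.418 to 0.317 at intron 19 and -0.135 to 0.40 at intron 20 for long against NT, and -0.130 to 1.02 and -0.271 to 0.411 for long_alt against long. With skipped reads out of the denominator, intron 19 excision in long minus NT was 0.0293 points. In direct RNA, mut5SS minus long without undetermined reads was -1.19 points for intron 20 excision and 1.03 for its retention. By intron 18, the long direct RNA differences were 0 at both introns with at least 10 reads, and 0.122 and -3.82 points with introns 15 to 17 excised, where intron 20 in mut5SS gave -0.0641. The mut5SS comparison at intron 19 had no value.

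Replicate numbers are shared between conditions, but no label pairs them. Deviations of same-numbered replicates over 18 shares correlated at 0.55 (NT and long), -0.086 (NT and long_alt) and 0.045 (long and long_alt). With a replicate block the difference in intron 19 excision, both minigenes minus NT, was -7.46 points (adjusted p = 0.333, exact permutation test). The block was used only for comparisons between conditions, which could reach no call with or without it. Reads over at least introns 15 to 20 and, chosen after seeing the data, leaving out reads with all 6 introns retained changed no call. Pooled replicates were not tested, and all 30 pooled values lay within the SD of the unpooled ones.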
